A study of Mus musculus with 8 samples.

Results

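The miR-29 family of mouse liver was described here through the 6 miRNAs of that name on the array: the guide strands mmu-miR-29a, mmu-miR-29b and mmu-miR-29c and their passenger strands mmu-miR-29a*, mmu-miR-29b* and mmu-miR-29c*, written below without the prefix. They were taken by name from the 567 mouse miRNAs that the array measured. The study compared livers of db/db mice, which lack a working leptin receptor and become obese and diabetic, with livers of control db/+ mice, which carry 1 working copy. Both are given as C57BL/KsJ by the labels, each group had 4 animals with 1 array per animal, and the series reports higher body weight and plasma glucose in the diabetic animals. All 8 samples were total RNA of whole frozen liver, with 100 ng labelled per array. Neither age nor sex of the animals is given by the labels or the series text. In RNA of a whole organ, fewer cells of a type and less RNA per cell cannot be told apart.

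A miRNA is cut from a hairpin whose arms each leave a short strand. The guide strand is usually kept in the silencing complex and pairs with mRNAs mainly through its seed, the bases at positions 2 to 8, while the passenger strand, written with a star, is mostly degraded. The miR-29 guides are known for lowering the mRNAs of collagens and other matrix proteins. In hepatic stellate cells they are known to fall under transforming growth factor beta signalling, and in hepatocytes and adipocytes they have been tied to insulin action.

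The mature sequences are shown because the 3 guides share 1 seed, so that a change in any of them would bear on overlapping targets, while the passenger strands each have another seed. Sequences are from RefSeq (GRCm38.p6), all 6 members matched, and capitals mark the seed.
miR-29a: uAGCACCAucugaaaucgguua
miR-29b: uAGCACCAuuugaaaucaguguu
miR-29c: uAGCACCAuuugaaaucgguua
miR-29a*: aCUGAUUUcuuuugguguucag
miR-29b*: gCUGGUUUcauauggugguuua
miR-29c*: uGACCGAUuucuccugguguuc
Of the 1679 mature mouse miRNA names in that table, 3 (0.179%) carried the guide seed, and these were the 3 guides. Counted from 1 at the 5′ end, miR-29c differed from miR-29a by C10U alone. The substitutions from miR-29a to miR-29b were C10U, G18A, U21G and A22U, and miR-29b was 1 base longer. Whether the probes of miR-29a and miR-29c also bind each other's target was not tested.

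The members lie in 2 clusters. By the array's own annotation, in the mm9 build, miR-29a (chr6:31012673-31012692), miR-29a* (chr6:31012711-31012732) and miR-29b* (chr6:31013067-31013088) lie within 416 bases of chromosome 6. miR-29b (chr1:196863287-196863307), miR-29c* (chr1:196863757-196863777) and miR-29c (chr1:196863794-196863815) lie within 529 bases of chromosome 1. These are the spans of the probes, which cover 19 to 22 bases. The mature miR-29b is made from both clusters, by the genes Mir29b-1 and Mir29b-2, and the array lists it at the chromosome 1 copy. In RefSeq (GRCm38.p6), Mir29b-2 and Mir29c lie inside the gene A330023F24Rik, and no gene encloses Mir29a or Mir29b-1. The hairpin of Mir29c is shown because it is the only one of which both arms were measured well enough to be tested.
Mir29c hairpin, passenger arm first, both arms in capitals: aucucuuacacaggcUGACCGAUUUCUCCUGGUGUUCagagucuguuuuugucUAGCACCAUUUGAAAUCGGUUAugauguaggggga

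Array brightness differed much more among the controls than among the diabetic livers. Each array was divided by its scale factor, its median signal over 89 miRNAs that every array detected, set against the geometric mean of those medians. The factors ran from 0.210 to 5.63 in db/+, a 26.8-fold span, and from 0.847 to 1.06 in db/db, a 1.26-fold span. Between 91 and 255 mouse miRNAs were detected per db/+ array and between 133 and 166 per db/db array. All 4 db/db arrays stood in row 1 of the slide and all 4 db/+ arrays in row 2, so that effects of slide row and of strain cannot be told apart. The 6 hepatocyte miRNAs used as tissue markers were detected on all 8 arrays, and the 4 skeletal muscle miRNAs on none. Levels below are log2 of the scaled signal, and differences are db/db minus db/+.

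The 3 guides all had lower means in db/db than in db/+, by 0.43 to 0.69 on the log2 scale, and none passed the test across all miRNAs. Each of the 4 db/db animals lay below the db/+ mean for each guide, for miR-29b on db/db replicate 1 only barely (10.12 against 10.14). The guides share the scale factor of each array, and the share of all tested miRNAs with this pattern was not computed. Only for miR-29c were the groups separate. The difference of the passenger strand miR-29c* was 0.19, with a direction that changed with the processing, and miR-29a* and miR-29b* were too dim to test.

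**Figure D1:**
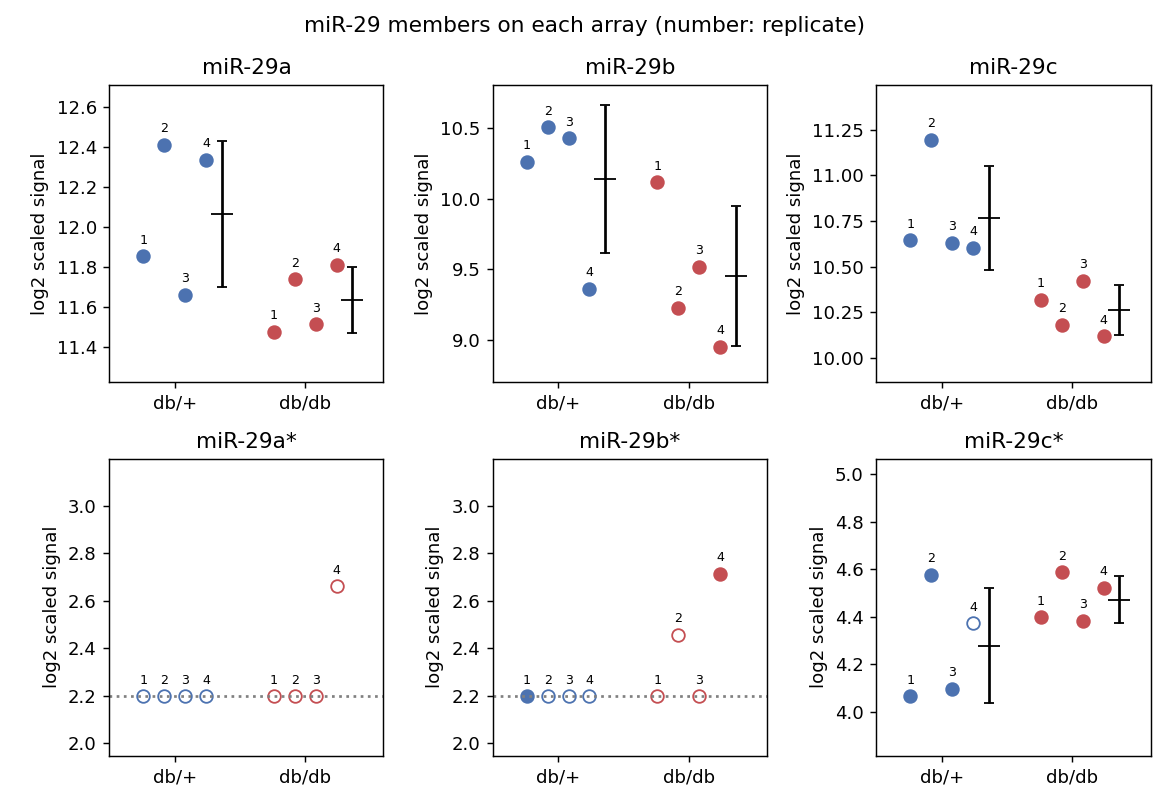
Level of each of the 6 members on each array (points, log2 scaled signal, each panel with its own range, replicate number above), for db/+ in blue and db/db in red. Open points were not detected, the dotted line in the lower panels is the floor, and bars give the mean and SD of the 4 arrays for the 4 members tested. Only the miR-29c panel shows groups that do not overlap.

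miR-29a had a level of 11.85, 12.41, 11.66 and 12.34 in db/+ replicates 1 to 4 and of 11.47, 11.74, 11.51 and 11.81 in db/db replicates 1 to 4. The db/+ levels fell into a lower pair, replicates 1 and 3, and a higher pair, replicates 2 and 4. The lower pair lay within or next to the db/db range. The probes of miR-29a did not share this order of the controls, as given below. The group means were 12.07 ± 0.37 (SD, n = 4) in db/+ and 11.63 ± 0.17 (SD, n = 4) in db/db. The difference of -0.43 ± 0.20 (SE) had a 95% interval from -0.87 to 0.01 and a limma adjusted p of 0.187.

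miR-29b had a level of 10.26, 10.51, 10.43 and 9.36 in db/+ and of 10.12, 9.23, 9.52 and 8.95 in db/db, replicates in the same order. It was the most variable guide within a strain: db/+ replicate 4 lay within the db/db range, and db/db replicate 1 lay close to the other controls. On db/+ replicate 4, 10 of 18 miR-29b spots were well above background, and all were on each other array. The means were 10.14 ± 0.53 (SD, n = 4) and 9.45 ± 0.50 (SD, n = 4). The difference of -0.69 ± 0.31 (SE) had a 95% interval from -1.38 to 0.0018 and a limma adjusted p of 0.185. Its size was the largest of the guides, but so was its error.

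miR-29c had a level of 10.64, 11.20, 10.63 and 10.60 in db/+ and of 10.32, 10.18, 10.42 and 10.12 in db/db. All 4 controls lay above all 4 diabetic animals, and db/+ replicate 2 stood above the other controls, which lay close together. The means were 10.77 ± 0.28 (SD, n = 4) and 10.26 ± 0.14 (SD, n = 4). The difference of -0.51 ± 0.17 (SE), a 1.42-fold lower level, had a 95% interval from -0.89 to -0.12, an unadjusted limma p of 0.0149 and an adjusted p of 0.0860. Without db/+ replicate 4, the dimmest array, the difference was -0.66 with a limma adjusted p of 0.0193, in a fit that called 10.5% of all tested miRNAs. Without db/+ replicate 2, where miR-29c was highest, it was -0.37 with a limma adjusted p of 0.138. Of the 8 arrays left out singly, db/+ replicate 4 was the only one whose omission called miR-29c. Over 25 alternatives of processing or sample choice the difference stayed negative, with adjusted p between 0.0183 and 0.993. Those of floor, detection and replicate block left the difference itself unchanged, so they are no check of its direction.

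Set against all miRNAs tested, none of the 4 tested members was called, while limma called 19 of 127 (15%) at an adjusted p under 0.05. In the direction of the guides, 7 of 127 (5.51%) were called lower in db/db, and 9.45% were called higher. At an unadjusted p under 0.05, 1 of the 4 members passed against 26% of all tested miRNAs. Groups that did not overlap were found for 1 of the 4 members and for 22.8% of all tested, and for 7.09% in the lower direction. SAM, the permutation method that the series names, called none of the members and 18.1% of all tested at a false discovery rate under 5%, with 6.3% in the lower direction. Against these shares, the members' counts of 0 or 1 of 4 are no result about the family.

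In rank the guides lay toward the lower end. miR-29b had rank 7, miR-29c rank 15 and miR-29a rank 18 among the 127 differences counted from the lowest. The median difference was -0.51 for the 3 guides and 0.15 over all tested miRNAs, of which 43 of 127 were negative. The mean of the 3 guides on an array was 10.92, 11.37, 10.91 and 10.77 in db/+ and 10.64, 10.38, 10.48 and 10.29 in db/db. These values did not overlap between the strains, although of the single guides only miR-29c had separate groups. Among single tested miRNAs 22.8% did not overlap, 7.09% in the lower direction. That share is no matching background, since none was computed for means of 3 miRNAs. As a description without a test, the difference of the mean of the 3 guides was -0.54.

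The median over all tested miRNAs moved with the scaling, from 0.15 with the median used here to 0.02 with quantile normalization, a shift of over 0.1. Relative to that median, miR-29a was at -0.58 with median scaling and between -0.66 and -0.53 over the 5 scalings compared. Likewise miR-29b lay between -0.85 and -0.79 and miR-29c between -0.66 and -0.61. Median, 75th percentile and no scaling apply 1 factor to a whole array, so apart from the floor they leave these distances as they are. Without scaling the distances still moved, to -0.53 for miR-29a, -0.79 for miR-29b and -0.61 for miR-29c, and miR-29b went from rank 7 to rank 9. Quantile normalization and cyclic loess are not bound to 1 factor per array. The test itself depended on the scaling. With quantile normalization, miR-29a (difference -0.64, limma adjusted p = 0.0067) and miR-29c (-0.61, adjusted p = 0.0203) both passed, and with cyclic loess they passed as well (-0.51 and -0.63, adjusted p = 0.0278 and 0.0183). Those fits called 13.4% and 16.5% of all tested miRNAs. miR-29b passed only when limma weighted arrays by quality (-0.98, adjusted p = 0.0132), and miR-29c passed there too (-0.47, adjusted p = 0.0244). That fit called 33.1% of all tested miRNAs, and in it the difference of miR-29a shrank to -0.19 (limma adjusted p = 0.356). Over the 25 alternatives the adjusted p ran from 0.0067 to 0.993 for miR-29a and from 0.0132 to 0.993 for miR-29b.

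**Figure D2:**
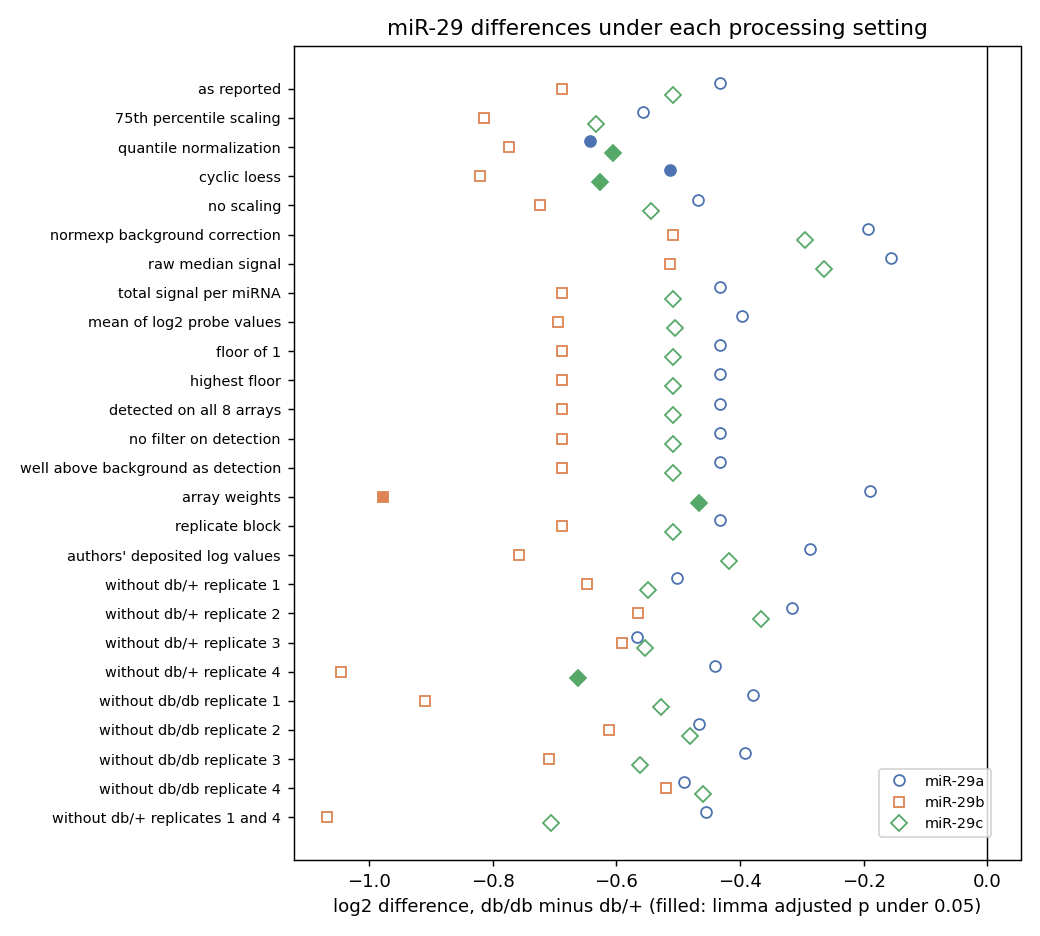
Difference of miR-29a (circles), miR-29b (squares) and miR-29c (diamonds) on the x axis, in log2, db/db minus db/+, as reported and under each processing alternative or with arrays left out (y axis). Filled symbols have a limma adjusted p under 0.05, and all points lie left of 0.

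Each guide was read by a pair of probes of 10 spots each, which differ in how many bases of the miRNA they cover. For miR-29a the shorter probe, covering 19 bases, gave a difference of -0.37 ± 0.14 (SE) with a limma adjusted p of 0.150, and the longer, covering 20 bases, gave -0.42 ± 0.24 (SE) with 0.311. The probes of miR-29b gave -0.70 ± 0.37 (20 bases, adjusted p = 0.279) and -0.68 ± 0.33 (21 bases, adjusted p = 0.253). Those of miR-29c gave -0.48 ± 0.15 (21 bases, adjusted p = 0.104) and -0.53 ± 0.16 (22 bases, adjusted p = 0.103). Within each guide the probes thus differed by less than either SE.

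Of the 8 tested probes of the members none was called, against 9.23% of the 271 probes tested and 2.58% called lower. The unadjusted limma p was under 0.05 for the shorter probe of miR-29a and for both of miR-29c, 3 of 8, against 24% of all tested probes. Both probes of miR-29c had groups that did not overlap, a pattern found in the lower direction for 4.8% of probes. Without db/+ replicate 4 both were called, with differences of -0.65 and -0.67 and limma adjusted p of 0.0404 and 0.0324, in a fit that called 6.67% of probes. Leaving out any one of the other 7 arrays, or db/+ replicates 1 and 4 together, called no probe of the members. Spot noise was small beside the spread of animals. Over the 6 guide probes the coefficient of variation among spots had a median of 4.27% and the SE of a probe mean was at most 0.07 on the log2 scale.

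**Figure D3:**
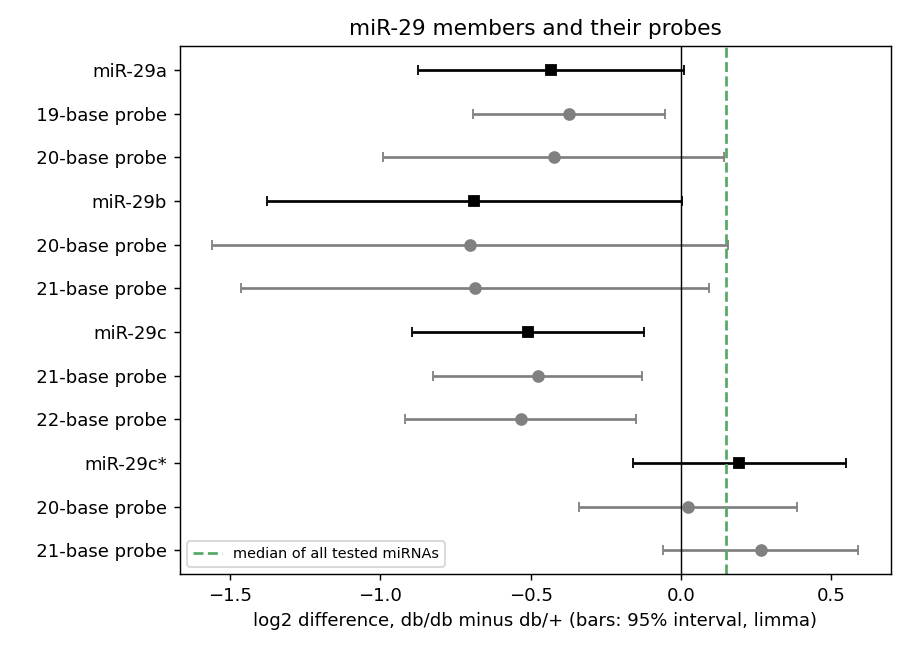
Difference on the x axis, db/db minus db/+ in log2, of the 4 tested members (black squares) and their 8 probes (grey circles), with 95% intervals from limma and a dashed line at the median of all tested miRNAs, 0.15. The 6 probes of the guides lie below 0 and the probes of miR-29c* lie at 0.02 and 0.27.

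The pair of probes of miR-29a did not keep 1 ratio among the controls. The log2 signal of the longer minus the shorter probe was 1.94, 2.83, 1.44 and 2.80 in db/+ replicates 1 to 4 and 2.22, 2.22, 2.22 and 2.15 in db/db replicates 1 to 4. The SD was 0.68 in db/+ and 0.035 in db/db, and the means differed by -0.05 (two-sided exact permutation p = 1). The low pair, replicates 1 and 3, had scale factors of 5.63 and 1.58, and the high pair, replicates 2 and 4, had 0.564 and 0.210. These are also the pairs into which the miR-29a levels of the controls fell. Only the longer, brighter probe had that order, with 12.52, 13.22, 12.21 and 13.14 in db/+ replicates 1 to 4. The shorter probe gave 10.58, 10.39, 10.77 and 10.35, with replicates 1 and 3 highest. The pairs are thus not shown to be a property of the animals.

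For miR-29b the same quantity was 3.25, 3.57, 3.06 and 3.41 in db/+ and 3.25, 3.44, 3.41 and 3.26 in db/db. For miR-29c it was 0.21, 0.38, 0.19 and 0.38 in db/+ and 0.19, 0.24, 0.23 and 0.26 in db/db. In both, db/+ replicates 2 and 4 were again above replicates 1 and 3, by less than for miR-29a. The miR-29b value of 3.41 rests on a weak signal, since 0 of 8 spots of its shorter probe on db/+ replicate 4 were well above background. A ratio within an array is free of scaling between arrays, and the part of array brightness in these values was not tested.

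**Figure D4:**
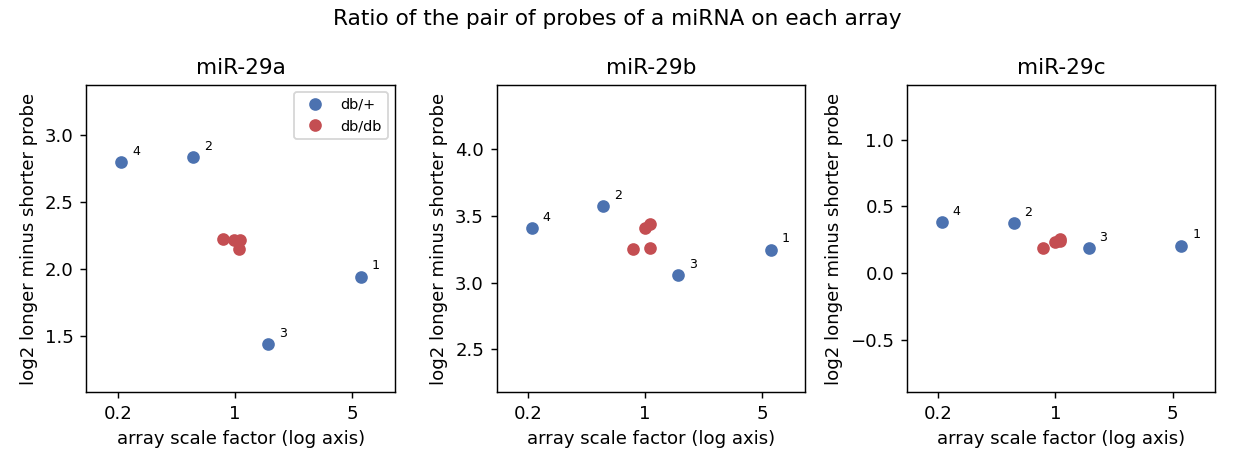
Log2 signal of the longer minus the shorter probe of each guide (y axis) against the array's scale factor (x axis, log scale), db/+ in blue with replicate numbers and db/db in red. For miR-29a the db/+ arrays span 1.44 to 2.83, while the db/db arrays lie between 2.15 and 2.22.

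The guides were next set against each other on the same array. The log2 ratio of miR-29a to miR-29c differed by 0.08 between the strains (two-sided exact permutation p = 0.857), that of miR-29a to miR-29b by 0.26 (p = 0.629, exact) and that of miR-29b to miR-29c by -0.18 (p = 0.571, exact). The spread was wide: the ratio of miR-29a to miR-29b had an SD of 0.75 in db/+ and 0.65 in db/db (n = 4 each). Leaving out 1 array moved the first from -0.03 (without db/db replicate 4) to 0.22 (without db/+ replicate 4). It moved the second from 0.02 (without db/+ replicate 3) to 0.60 (without db/+ replicate 4), and the third from -0.38 (without db/+ replicate 4) to -0.04 (without db/+ replicate 3). A difference among the guides was thus not detectable with 4 arrays per group, which does not show that they moved alike. Over the 8 arrays, which share their scaling, the levels correlated with r = 0.67 for miR-29a and miR-29c, 0.74 for miR-29b and miR-29c and 0.10 for miR-29a and miR-29b.

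The passenger strands were dim. miR-29a* was detected on none of the 8 arrays, and miR-29b* on db/+ replicate 1 and db/db replicate 4 only. On db/+ replicate 1 the scaled signal of miR-29b* was 4.26, under the floor of 4.59, and on db/db replicate 4 it was 6.56. Neither strand was tested, and no level is given for them beyond these.

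miR-29c* was detected on 3 of 4 db/+ and 4 of 4 db/db arrays, so that it met the filter for testing through db/db only. Its level was 4.06, 4.58, 4.10 and 4.37 in db/+ and 4.40, 4.59, 4.38 and 4.52 in db/db. The groups overlapped, with db/+ replicates 1 and 3 below the rest. On db/+ replicate 4, where it was not detected, its scaled signal of 20.7 lay below the lowest of any detected miRNA, 25.9, and so was not reliably measured. The difference of 0.19 ± 0.16 (SE) had a 95% interval from -0.16 to 0.55 and a limma adjusted p of 0.411. Its direction was not stable, since it was -0.04 with quantile normalization, -0.07 with cyclic loess, -0.60 with normexp background correction and -0.30 with raw median signals. The normexp setting added an offset of 50, and raw medians keep the background, with medians of 95.5 to 148 per array over all spots. Before scaling, the processed signal of miR-29c* was only 4.35 to 94.2 in db/+ and 17.8 to 25.6 in db/db. Offset or background thus weighs heavily on the values of this strand in those settings. The probes of miR-29c* gave 0.02 ± 0.15 (20 bases, limma adjusted p = 0.952) and 0.27 ± 0.14 (21 bases, adjusted p = 0.279), and 51 of 77 spots of the longer probe but 9 of 77 of the shorter were well above background.

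The ratio of guide to passenger on the same array took lower values in db/db for miR-29c. The log2 ratio of miR-29c to miR-29c* was 6.58, 6.62, 6.54 and 6.23 in db/+ and 5.92, 5.59, 6.04 and 5.60 in db/db, without overlap. The ratio is one of probe signals and not of molecules, and it carries the limits of the dim miR-29c* described above. Since miR-29c* met the filter through db/db only, where its mean was higher, the p-values of its ratios are descriptions and no tests. The value of 6.23, on db/+ replicate 4, has a passenger signal that was not detected. Without that array the difference was -0.79. Over all 8 arrays the difference was -0.70, with a two-sided exact permutation p of 0.029, the smallest that 4 against 4 can give, and of 0.0857 after Benjamini-Hochberg adjustment over the 6 pairs of tested members. The ratio of miR-29a to miR-29c*, strands of different hairpins, also did not overlap between the strains and differed by -0.63 with the same exact p of 0.029 and 0.0857 adjusted. For miR-29b to miR-29c* the difference was -0.88 (exact p = 0.0857, adjusted 0.171). These directions changed with the background setting, an alternative added after the values were seen. In that alternative, offset or background weighs heavily on the dim miR-29c*, as given above. With normexp the differences were 0.31, 0.41 and 0.09 for miR-29c, miR-29a and miR-29b over miR-29c*, and with raw median signals they were 0.03, 0.14 and -0.22. At least 4 of the 6 pairs would have had to reach the smallest p for any to pass, so that this design could hardly call a single pair.

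A fit over arms of other miRNAs was therefore added after these values were seen. limma on the log2 ratio of both arms, over the 11 miRNAs with both arms tested, called 3 (27.3%). These were miR-125a, with a difference of 1.32 in the ratio of its 3p to its 5p arm, miR-338, with -0.89 in the same ratio, and miR-29c, with -0.70 ± 0.22 (SE), a 95% interval from -1.19 to -0.22 and an adjusted p of 0.0302. Groups without overlap in the lower direction were seen for 18.2% of the arm pairs. The passenger miR-29c* entered this fit through its detection in db/db only, the group where its mean was higher. The call and adjusted p of miR-29c are thus a description and no test. The call for miR-29c was lost with the other background settings, where offset or background weighs heavily on the dim miR-29c*, as given above. With normexp the difference was 0.31 (limma adjusted p = 0.564) and with raw median signals 0.03 (adjusted p = 0.973). With probes averaged on the log2 scale it was -0.65 (adjusted p = 0.0579). It was also lost without any one of db/+ replicates 1, 2 or 3 (adjusted p = 0.110, 0.0751 and 0.0806) or db/db replicates 1, 2 or 4 (0.0557, 0.0733 and 0.0949). Over all its alternatives the limma adjusted p ran from 0.0048 to 0.973.

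**Figure D5:**
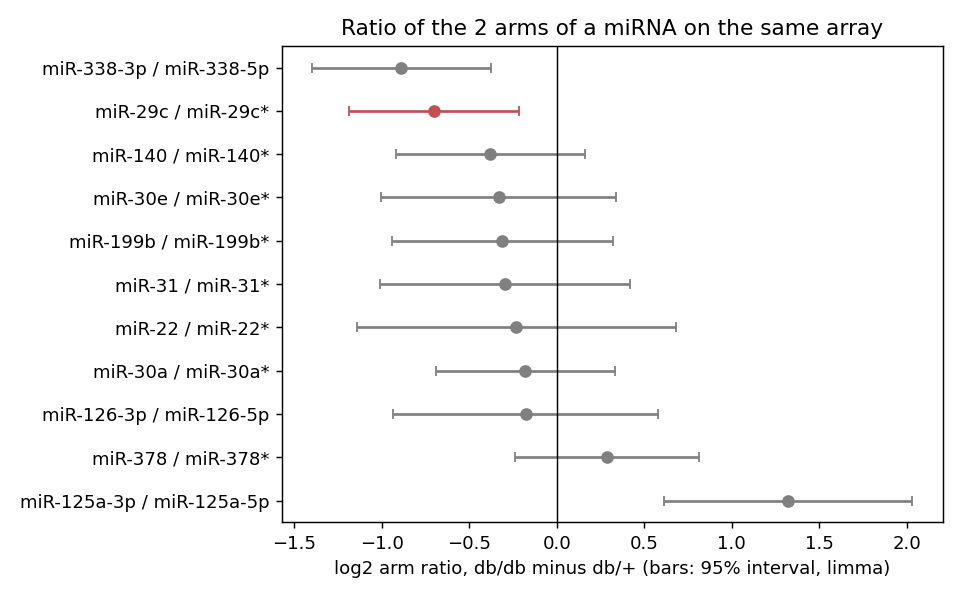
Difference between the strains in the log2 ratio of the arms of a miRNA (x axis, db/db minus db/+) for 11 miRNAs, with 95% intervals from limma, miR-29c in red. The intervals of miR-338, miR-29c and miR-125a do not reach 0. For miR-29c this is a description, since miR-29c* entered the fit through db/db only.

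The authors' deposited log values gave the guides another order of arrays. Converted to log2 from an estimated base of 20, miR-29c in the authors' deposited table was 11.06, 10.97, 11.03 and 9.88 in db/+ and 10.39, 10.38, 10.50 and 10.00 in db/db. There db/+ replicate 4 lay below all 4 db/db animals, whereas in the levels above it lay above them. In the authors' deposited table miR-29a was 12.25, 12.18, 11.98 and 11.63 in db/+ and 11.59, 11.78, 11.73 and 11.79 in db/db. The differences from that table were -0.29 for miR-29a, -0.76 for miR-29b and -0.42 for miR-29c, with limma adjusted p of 0.428, 0.275 and 0.463. All 3 kept the lower direction. The table held 139 miRNAs, among them the guides and miR-29c*, and 3 of the 139 were called in it. The difference of miR-29c* there was 0.53 (limma adjusted p = 0.435).

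The miRNAs whose levels were most like the mean of the 3 guides over the 8 arrays were miR-362-3p (r = 0.94), miR-21 (0.93), miR-142-3p (0.91), miR-15a (0.88) and miR-99b (0.85). The least like were miR-23b (r = -0.91), miR-365 (-0.90) and miR-676 (-0.87). These are descriptions over 8 points that share the strain difference and the scaling of each array. Within the 4 db/+ arrays alone the first 5 had r between 0.60 and 0.82, and within db/db miR-99b was at -0.34 while the other 4 were between 0.75 and 0.98. miR-21, an abundant miRNA tied to fibrosis and inflammation, was at 13.73 in db/+ and 12.95 in db/db (difference -0.78, limma adjusted p = 0.0085), and miR-142-3p, a miRNA of blood cells, fell by 1.10 (limma adjusted p = 0.0164).

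Markers of other cell types were read beside the guides. Of 7 leukocyte miRNAs 4 were tested and 2 fell, miR-142-3p and miR-223 (difference -0.74, limma adjusted p = 0.0434), against 5.51% called lower over all tested miRNAs. None of the 7 was undetected on every array, and their summed scaled signal was 514 to 744 in db/+ and 321 to 419 in db/db, without overlap. Such a sum is weighted toward the brightest members of a list and includes untested ones. Among single tested miRNAs, 22.8% did not overlap, and no such share was computed for sums. Of the 4 stellate and smooth muscle miRNAs on the array 3 were tested and none was called, with sums of 69.1 to 100.5 in db/+ and 89.8 to 117 in db/db. Of 5 bile duct epithelium miRNAs 2 were tested and 1 rose, miR-200b, against 9.45% called higher over all tested miRNAs. The sums of the 5, 54.2 to 68.8 in db/+ and 73.5 to 104 in db/db, did not overlap. None of the 5 was detected on all 8 arrays, so these sums include signals that were not detected. Both endothelial miRNAs and 1 of 2 erythroid miRNAs were tested and none was called, with sums of 1488 to 2172 and 813 to 1971 in db/+ and of 1676 to 2085 and 1236 to 2213 in db/db. The part of these cells in the miR-29 values was not tested.

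Other miRNAs known from the settings of miR-29 changed in both directions. Of 20 miRNAs of a liver fibrosis list on the array, 16 were tested, 1 rose and 1 fell, with a median difference of 0.09. The one that rose was miR-34a, a target of p53, by 2.54 (limma adjusted p = 0.00017), and the one that fell was miR-21. Of 26 miRNAs of a list tied to insulin and glucose, 20 were tested, 5 rose and 1 fell, with a median of 0.34 against 0.15 over all tested. Over all tested miRNAs 9.45% were called higher and 5.51% lower. Those that rose were miR-34a, miR-378 (1.09, limma adjusted p = 0.0063), encoded in an intron of the coactivator gene Ppargc1b, miR-200b (0.81, adjusted p = 0.0079), and the near-identical pair miR-107 (0.74, adjusted p = 0.0164) and miR-103 (0.58, adjusted p = 0.0220), known to lower insulin sensitivity in liver. The one that fell was miR-223, a miRNA of myeloid cells.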

How the data were processed

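Per the file headers, the scanner output with the intensity of each spot was written by version 9.5.3.1 of Agilent Feature Extraction. Per the file headers, the processed intensity was background-subtracted but had no scaling from array to array. Flags for detected miRNAs, outlier spots and spots well above background are of another kind, 0 or 1, per the file headers. A deposited matrix of the series repeated the raw median intensity of all 12493 spots per array. The authors also deposited a log score per miRNA, described in the series text as median normalized. Its base is not given in the sources used here and was estimated as 20.

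Outlier spots, 3.42% to 4.84% of 11540 miRNA spots per array, were left out, and none was saturated. Spots, then probes, were averaged on the linear scale. Arrays were median-scaled and floored at 4.59 (the lowest detected signal per array, median of 8 arrays) before log2 was taken. The floor can change folds of dim miRNAs. The same floor served the probes, because the planned probe floor lay below 0. miRNAs detected on all 4 arrays of a group entered limma 3.58.1, run in R 4.3.3 (strain as the only term, two-sided, Benjamini-Hochberg over 127 miRNAs). Ratios had exact permutation tests over all 70 relabelings. Scripts were tested on simulated data. Plots were drawn by matplotlib (version 3.10.9).

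Members, lists and tests were chosen with earlier results of these data known. All members were named, with list members past an adjusted p of 0.05 and the 5 most and 3 least correlated miRNAs. Alternatives covered scaling, background, floor, detection, array weights, replicate block and arrays left out. The number of arrays limits the precision.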

Additional observations from a re-analysis of the deposited data

Results flagged for a closer look

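miR-29c on db/+ replicate 2 stood apart from the other controls. Its gap to the nearest of the other 3 was 0.931 of the group's whole range, above Dixon's critical value of 0.829 for 4 samples. Without that array the miR-29c difference was -0.37. The same rule picked miR-29a* on db/db replicate 4, with a gap of 1 of the range, since the other 3 db/db arrays were at the floor. That miRNA was detected on no array, so the value is no measured level. The rule was applied to 10 groups of values, and chance alone picks about 5% of groups.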

How the results depend on the processing

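Over 25 alternatives each, the differences of miR-29a, miR-29b and miR-29c stayed negative, between -0.64 and -0.16, -1.07 and -0.51, and -0.71 and -0.26. Tests changed as follows, with limma values. Quantile normalization called miR-29a (-0.64) and miR-29c (-0.61), 2 members, with 13.4% of all miRNAs called. Cyclic loess called the same pair (-0.51 and -0.63), 2 members, with 16.5% called. Array weights called miR-29b (-0.98) and miR-29c (-0.47), 2 members, with 33.1% called and miR-29a at -0.19. Without db/+ replicate 4, 1 member, miR-29c (-0.66), and 2 probes, both of miR-29c, were called, with 10.5% of miRNAs and 6.67% of probes called. With 1 array left out, differences ran from -0.57 to -0.32 for miR-29a, -1.05 to -0.52 for miR-29b, -0.66 to -0.37 for miR-29c and 0.12 to 0.29 for miR-29c*, with 0 to 1 members and 0 to 2 probes called.

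miR-29c* turned negative with quantile normalization (-0.035), cyclic loess (-0.069), normexp (-0.60) and raw median signals (-0.30). The normexp offset of 50 and the background kept in raw medians weigh heavily on this dim strand and its ratios. The ratio of both arms of miR-29c turned positive with normexp (0.31) and raw median signals (0.031), was -0.65 with log2 probe means, and ran from -0.79 to -0.64 with 1 array left out. The ratio of miR-29a to miR-29c* turned positive likewise (0.41 and 0.14), and that of miR-29b to miR-29c* with normexp (0.094). The ratio of miR-29a to miR-29c ran from -0.031 to 0.22 with 1 array left out, at -0.013 without db/+ replicate 3 and -0.031 without db/db replicate 4. The causes were not tested.

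Replicate numbers 3 and 4 stand in the labels of both strains. Deviations of same-numbered arrays correlated at 0.04 and 0.31, which does not pair them. With the replicate block the differences were -0.43, -0.69 and -0.51 for miR-29a, miR-29b and miR-29c (limma adjusted p = 0.164, 0.0710 and 0.104), 0 members were called, and 18 of 127 miRNAs were called against 19 without it.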
